A study of Mus musculus with 93 samples.

Results

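Docosahexaenoic acid (DHA, C22:6) was given to mice as tridocosahexaenoin, a triglyceride built from this fatty acid alone, and its effect on the liver transcriptome was measured in wild-type (WT) animals. The comparison takes the arrays titled as WT C22:6 (5) and as WT control (3) from the first run of the study, which makes 8 of the 93 arrays of the series, each hybridized with total liver RNA of 1 mouse. Both groups were male 129S1/SvImJ mice that had fasted for 4 hours, and the livers were taken 6 hours after a gavage. The C22:6 mice received 400 µl of the triglyceride and the control mice 400 µl of 0.5% carboxymethyl cellulose, so the controls received no fat. The labels give an age of 8 to 24 weeks for the C22:6 mice and of 12 to 20 weeks for the controls, and a part of age in the differences was not tested. Before the experiment all mice were kept on a run-in diet that contained olive oil. For side-by-side values the same run held PPARα -/- mice given C22:6 (5) or the vehicle (5), and WT mice given C20:5 (5), C18:1 (5) or the synthetic PPARα agonist WY14643 (4). The labels give 8 to 24 weeks for the mice of the C20:5 and C18:1 groups and for PPARα -/- mice given C22:6, and 12 to 20 weeks for PPARα -/- vehicle and WT WY14643 mice, so the C22:6 and vehicle mice of both genotypes differed in this way. The PPARα -/- mice were males of another substrain, 129S4/SvJae, so that effects of the missing receptor and of the substrain cannot be told apart.

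PPARα is a nuclear receptor that binds long-chain fatty acids and, as a partner of the retinoid X receptor, switches on genes for the activation, transport and oxidation of fatty acids. It is best known in liver as the sensor that adapts hepatocytes to fasting, when fatty acids from adipose tissue reach the liver. DHA is a very long and highly unsaturated omega-3 fatty acid that is shortened in peroxisomes before mitochondria can use it. Polyunsaturated fatty acids are also known to lower the activity of SREBP-1, the transcription factor of fatty acid synthesis.

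All levels are log2 of the authors' background-corrected and normalized probeset signal, a gene is represented by its probeset with the highest mean level over the 8 arrays, and a change is the mean of the 5 C22:6 arrays minus the mean of the 3 control arrays on the log2 scale. A signal is said to be at the floor where it does not exceed the 5th percentile of its own array, which lay between 4.15 and 4.35. "Rose" and "fell" are used of genes with an adjusted p under 0.05 in a moderated test over all 11412 probesets. The median signal of the 8 arrays lay between 136.5 and 143.2 on the linear scale. Among the defining genes of hepatocytes, 10 were measured, and their mean level was 11.7 to 11.9 in the C22:6 livers and 12.0 to 12.2 in the control livers. The median change of the 10 was -0.11. The largest was that of Ass1, -1.31, which was at the floor in all C22:6 livers, was not called and weighs on these means. Since whole liver was measured, fewer cells of a type and less RNA per cell cannot be told apart.

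Control replicate 2 stood apart from the other controls, and the results below are given with and without it where it matters. Its mean correlation with the other controls was 0.956, against 0.965 and 0.969 for control replicates 1 and 3 and 0.970 to 0.982 within the C22:6 group. The mean level of 27 acute phase genes was 11.1 in control replicate 2 and 9.32 and 10.0 in the other controls, against 9.18 to 10.1 in the C22:6 livers. The neutrophil genes S100a8 and S100a9 had levels of 6.15 and 5.21 in control replicate 2 and were at the floor in the other 7 arrays. The list of 23 genes of the unfolded protein and ATF4 response likewise averaged 9.06 in this array, against 8.19 and 8.27 in the other controls and 7.97 to 8.34 in the C22:6 livers. Within the C22:6 group, replicate 3 lay closest to the controls: 22 established PPARα targets averaged 9.81 in it and 10.4 to 10.8 in the other 4 C22:6 livers, against 8.75 to 9.17 in the control livers.

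**Figure D1:**
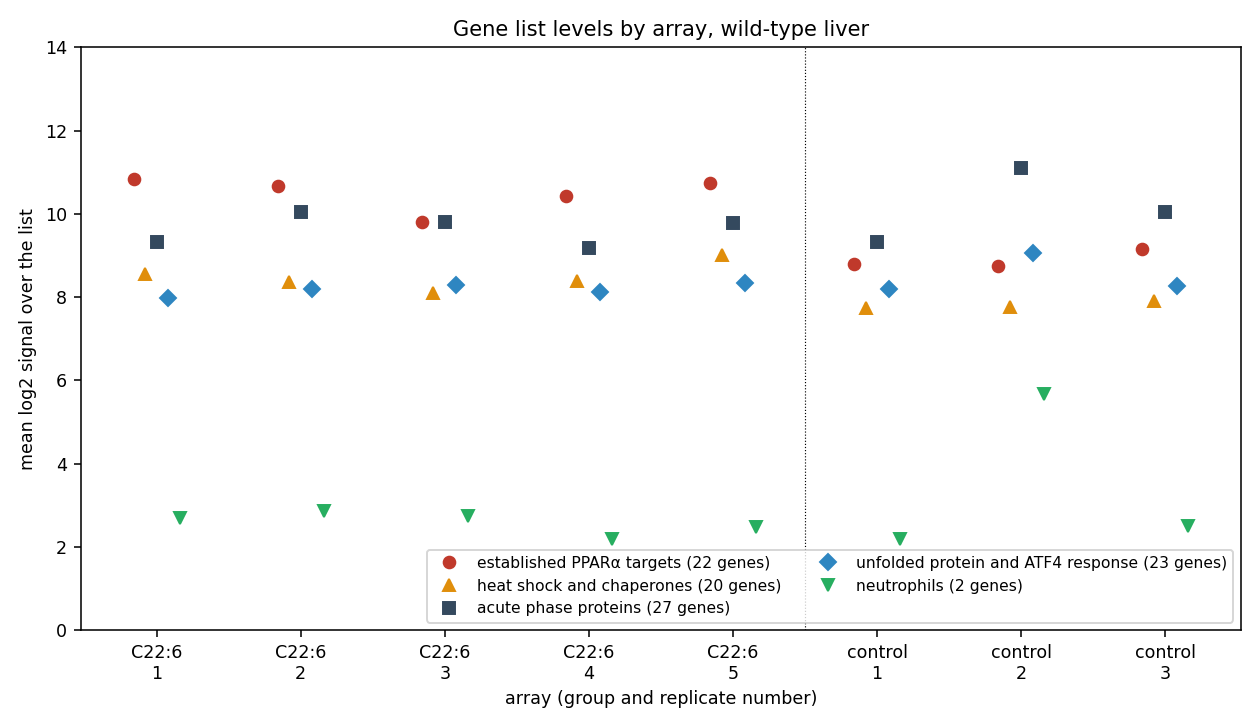
Mean log2 signal over 5 gene lists (vertical axis), with 1 point per list and array, in the 5 C22:6 livers and, to their right, the 3 control livers. The 22 established PPARα targets lie between 9.81 and 10.8 in the C22:6 livers and between 8.75 and 9.17 in the control livers, whereas the acute phase and neutrophil lists are highest in control replicate 2.

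With C22:6, 211 of 6661 genes rose (3.17%) and 158 fell (2.37%). By the fitted change, 64 rose and 31 fell at least 2-fold, 15 rose and 4 fell at least 4-fold, and 2 rose and 0 fell at least 8-fold. With every signal under its array's floor set to that floor, 50 rose and 23 fell at least 2-fold, 11 rose and 3 fell at least 4-fold, and 2 rose at least 8-fold. Over all 6661 genes the median change was -0.03, with 5% of the genes below -0.51 and 5% above 0.55. The change was above 0 in 43.8% of them. At the study's threshold of an unadjusted p under 0.01, 316 genes were higher (4.74%) and 295 lower (4.43%). Of the calls, 86 of the 211 genes that rose (40.8%) and 19 of the 158 that fell (12.0%) kept an adjusted p under 0.05 whichever of the 8 arrays was left out. Without control replicate 2, 125 genes rose, 112 of them among the 211 (53.1%), and 88 fell, 52 of them among the 158 (32.9%). The difference of the directions in this respect was not tested. When the spread was estimated from the 8 arrays alone, 14 of the 211 and 2 of the 158 genes kept an adjusted p under 0.05. The 14 included Acot1, Acot2, Acot3, Acot4, Pex11a, Hacl1, G0s2, Atp10d and Tmtc2, and the 2 were Ppp1r14a and Itgb1bp1.

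**Figure D2:**
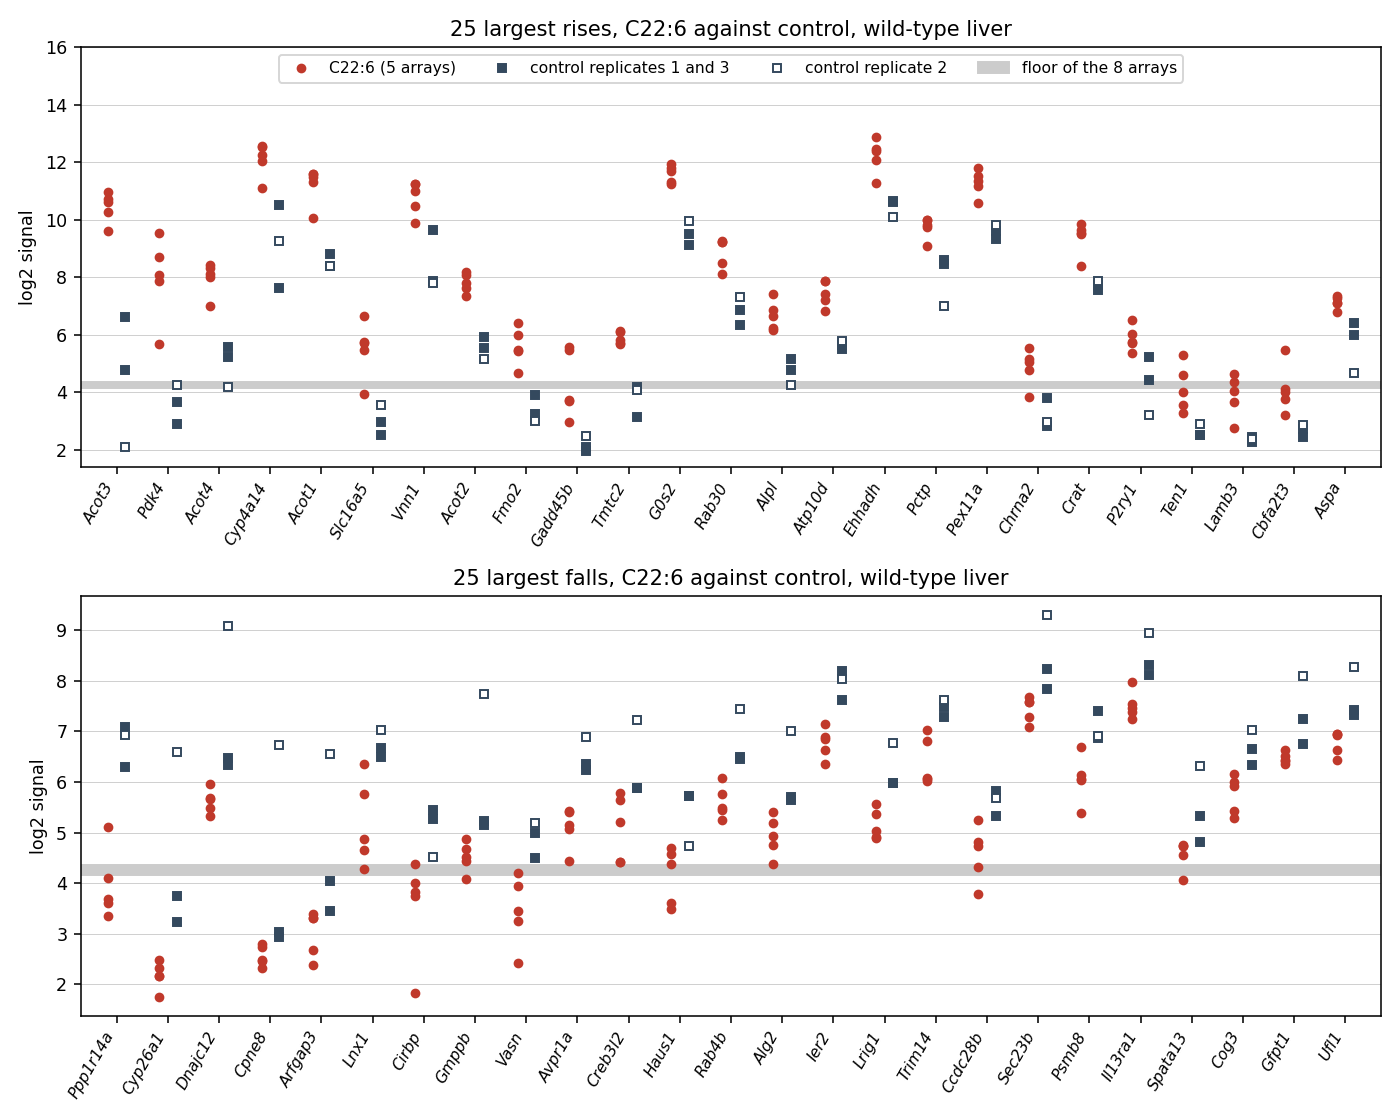
Log2 signal (vertical axis) in each of the 5 C22:6 livers (circles) and the 3 control livers (squares, open for replicate 2), for the 25 largest rises (upper panel) and the 25 largest falls (lower panel) among called genes whose groups do not overlap. The grey band is the range of the arrays' floors, 4.15 to 4.35, and the open square is the highest point of 19 of the 25 falls.

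Among the largest rises were those of acyl-CoA thioesterases, which split fatty acyl-CoA into free fatty acid and coenzyme A. Others were those of enzymes of ω-oxidation, which attacks fatty acids from the methyl end. Of 11 measured genes of this list 8 rose and 0 fell, with a median change of 2.27 over the 11, and the same 8 genes were counted without control replicate 2. Acot3, a peroxisomal thioesterase, had levels of 10.97, 10.62, 9.62, 10.73 and 10.25 in the C22:6 livers, against 6.61, 2.08 and 4.76 in the control livers. The groups were far apart, and only control replicate 2 was at the floor. The change was 5.95 ± 0.75 (SE), a 62.0-fold difference (adjusted p = 3.5e-07), and it was 4.75 without that array. With that control set to its floor the difference was 38.4-fold. Acot4, also peroxisomal, had levels of 8.31, 8.02, 7.0, 8.13 and 8.41 in the C22:6 livers and of 5.21, 4.16 and 5.58 in the control livers, a change of 2.99 ± 0.30 (7.93-fold, adjusted p = 2.1e-09). All C22:6 livers lay above all controls, with replicate 3 the lowest of its group for both genes. The cytosolic Acot1 rose by 2.68 and the mitochondrial Acot2 by 2.27, both without overlap of the groups. Acot8, a peroxisomal thioesterase of broad specificity, rose by 0.74, with C22:6 replicate 3 (7.13) within the range of the controls (7.07 to 7.34), and its call was lost without control replicate 1 or C22:6 replicate 5. The Acot1 to Acot4 genes are related in sequence, and whether their probesets also bind a neighbour's transcript was not tested.

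Of the ω-hydroxylases, Cyp4a14 had levels of 12.55, 12.56, 11.09, 12.27 and 12.04 in the C22:6 livers, against 7.63, 9.28 and 10.50 in the control livers. The groups did not overlap, although control replicate 3 came close to C22:6 replicate 3, and the change was 2.96 ± 0.39 (7.80-fold, adjusted p = 1.1e-06). Cyp4a31 rose by 2.87 ± 0.49 (adjusted p = 0.00013), but C22:6 replicate 3 (5.60) lay below control replicate 3 (6.00) and 1 control was at the floor. Cyp4a transcripts are alike in sequence too, and cross-binding was not tested. Aldh3a2, the fatty aldehyde dehydrogenase that takes the product one step further, had levels of 9.72 to 10.90 in the C22:6 livers and of 8.60 to 9.60 in the control livers, a rise of 1.34 ± 0.27 (adjusted p = 0.0010).

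The carnitine shuttle carries activated fatty acids across the mitochondrial membranes, and 4 of its 7 measured genes rose and 0 fell, with a median change of 0.74. Crat, the carnitine acetyltransferase, had levels of 9.63, 9.53, 8.37, 9.49 and 9.86 in the C22:6 livers and of 7.73, 7.85 and 7.57 in the control livers, a change of 1.66 ± 0.27 (3.16-fold, adjusted p = 4.3e-05). The control values lay close together and below every C22:6 liver. Slc22a5, the carnitine importer of the plasma membrane, rose by 1.57 ± 0.29 (adjusted p = 0.00041), with C22:6 replicate 3 (8.52) below control replicate 2 (8.72). Cpt2 and Slc25a20, the inner-membrane acyltransferase and the carnitine-acylcarnitine carrier, each rose by 0.74 with no overlap. All 4 genes also rose without control replicate 2, when the changes were 1.73 for Crat, 1.92 for Slc22a5, 0.80 for Cpt2 and 0.72 for Slc25a20.

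PPARα and its partner are known to bind a direct repeat of the hexamer AGGTCA with 1 base between the copies. The promoters of the genes that rose were searched for this repeat, with any base between the copies and on both strands, in RefSeq windows (GRCm38.p6) from 250 bases before to 50 after each start, where 239 windows of 170 of the 211 genes were found. An exact match was in 0 of the 239 windows and in 13 of all 32851 (0.0396%). With at most 2 letters different, 11 of the 239 (4.6%) held a match, against 3.86% of all windows, 3.39% of those of the tested genes and 1.97% of those of the genes that fell. The shares are close to each other and are given as a description. Of the 25 largest rises 18 had a window, and Acot4 was the single one with such a match. Shown are the matches of Acot4 and of the carrier Slc25a20, and that of Efl1, a ribosome maturation factor, which held the closest match of all genes that rose and was chosen after its value was seen (change 0.59, adjusted p = 0.040). Capitals mark the match, on the strand opposite to the gene for Acot4 and on the gene's own strand for the others, with 2, 2 and 1 letters different from the motif. The stretches are Acot4 at chr12:84038321-84038378, Slc25a20 at chr9:108662097-108662185 and Efl1 at chr7:82648527-82648613, all on the plus strand.
Acot4: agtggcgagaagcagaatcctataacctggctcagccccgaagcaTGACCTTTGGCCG
Slc25a20: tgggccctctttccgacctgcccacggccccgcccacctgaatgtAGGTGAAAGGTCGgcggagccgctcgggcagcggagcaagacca
Efl1: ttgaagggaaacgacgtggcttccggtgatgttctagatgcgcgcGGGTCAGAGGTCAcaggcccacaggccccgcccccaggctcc
The Acot4 match begins 13 bases before the annotated start, and that of Efl1 42 bases before it. A match of letters is no evidence of binding, and elements outside these windows were not searched.

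The enzymes of mitochondrial β-oxidation moved less far. Of 18 measured genes 8 rose and 0 fell, and the median change was 0.31; without control replicate 2 the rises numbered 3. Acadm, the medium-chain acyl-CoA dehydrogenase, had levels of 11.67, 11.59, 11.42, 11.67 and 11.65 in the C22:6 livers and of 11.22, 11.01 and 11.23 in the control livers. This change of 0.44 ± 0.07 (1.36-fold, adjusted p = 3.5e-05) was small but larger than the spread of either group, and it was 0.37 without control replicate 2 (adjusted p = 0.0037). Eci1, an enoyl-CoA isomerase needed for unsaturated chains, rose by 0.63 and Etfdh, which hands electrons to ubiquinone, by 0.44, and both also rose without that control. The rises of Hadha (0.45) and Hadhb (0.49), the subunits of the trifunctional protein, of Decr1 (0.31), a dienoyl-CoA reductase that also serves unsaturated chains, and of Acad11 (0.39) were lost without it. These values are of the probeset that represents the gene. With all controls, other probesets of Hadhb and Decr1 were called too, with changes of up to 1.17 and 0.99. Decr1 lost its call also without control replicate 1 and C22:6 replicates 1 and 5, and Hadhb without C22:6 replicate 5. Txnip, a thioredoxin-binding regulator of fuel use that is on the same list, rose by 1.24 with no overlap of the groups, and its change was 1.08 without control replicate 2 (adjusted p = 0.078).

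In the peroxisome, where very long chains such as DHA are shortened, 5 of 17 measured oxidation genes rose and 1 fell, with a median change of 0.36. Ehhadh, the bifunctional enzyme of the inducible peroxisomal pathway, had levels of 12.45, 12.41, 11.27, 12.07 and 12.87 in the C22:6 livers, against 10.65, 10.10 and 10.62 in the control livers. All C22:6 livers lay above the controls, and the change was 1.76 ± 0.21 (3.38-fold, adjusted p = 1.8e-07). Abcd3, a membrane transporter of acyl-CoA, rose by 0.58 ± 0.09 (adjusted p = 4.0e-05), and Hsd17b4, the bifunctional enzyme of the constitutive pathway, by 0.36. Hacl1, which cleaves 2-hydroxyacyl-CoA in α-oxidation, lay within 11.32 to 11.52 in the C22:6 livers and between 9.99 and 10.62 in the control livers, a rise of 1.09. Ech1, a dienoyl-CoA isomerase, rose by 0.46 with overlapping groups. Without control replicate 2 the adjusted p was 0.10 for Hacl1 and 0.12 for Ech1, and these calls were lost in 2 and 4 of the 8 fits that left out 1 array.

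The member that fell was Nudt7, a peroxisomal hydrolase that degrades coenzyme A and its esters. Its levels were 11.51, 11.50, 11.72, 11.48 and 11.69 in the C22:6 livers and 12.35, 12.50 and 12.11 in the control livers. Every C22:6 liver lay below every control, the change was -0.74 ± 0.15 (adjusted p = 0.0012), and it was -0.65 without control replicate 2 (adjusted p = 0.025). Of 14 genes of peroxisome biogenesis 2 rose, Pex11a, which elongates and divides peroxisomes, by 1.71 ± 0.30 and Pex13, of the import machinery, by 0.47 ± 0.08. Pex11a had levels of 10.59 to 11.79 in the C22:6 livers and of 9.32 to 9.80 in the control livers.

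Pdk4 phosphorylates and thereby inhibits the pyruvate dehydrogenase complex, which spares glucose when fatty acids are burned. Its levels were 9.54, 8.09, 5.68, 7.86 and 8.70 in the C22:6 livers and 2.89, 4.26 and 3.66 in the control livers, with 2 of the 3 controls at the floor. The C22:6 livers differed widely among themselves, yet even replicate 3 lay above the controls, and the change was 4.37 ± 0.63 (20.7-fold, adjusted p = 5.1e-06). With those 2 controls set to their floor the difference was 13.4-fold. The other 7 measured genes of the complex and its kinases had adjusted p values above the threshold, such as Pdhx, a component of the complex, with a change of 0.29 (adjusted p = 0.36), and Pdhb, a subunit of its first enzyme, with -0.17 (adjusted p = 0.52). On the list of ketone body synthesis and export, which also holds the hormone gene Fgf21, 2 of 5 measured genes rose. Fgf21, a hormone that the fasting liver secretes, had levels of 7.69, 6.99, 5.06, 6.74 and 7.69 in the C22:6 livers, against 4.76, 4.97 and 5.67 in the control livers. C22:6 replicate 3 lay within the range of the controls and the other 4 above it, and the change was 1.70 ± 0.40 (adjusted p = 0.0063). Acat1, the mitochondrial acetoacetyl-CoA thiolase, rose by 0.40 (adjusted p = 0.0074; 0.071 without control replicate 2).

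Genes of the lipid droplet and of lipolysis rose on both sides of storage and release, 6 of 13 measured and 0 fell, with a median change of 0.70. Among genes that favour storage, Cidec, a droplet protein that promotes the growth of droplets, had levels of 7.28, 7.73, 3.73, 5.00 and 8.15 in the C22:6 livers and was at the floor in all control livers (3.14, 3.99 and 3.41). C22:6 replicate 3 was at the floor as well, the other 4 livers were above it, and the rise was at least 4.55-fold against the floor of the controls (adjusted p = 0.0027). G0s2, an inhibitor of adipose triglyceride lipase, had levels of 11.95, 11.24, 11.31, 11.81 and 11.70 in the C22:6 livers, against 9.13, 9.94 and 9.49 in the control livers. The groups were well separated, replicate 3 included, and the change was 2.08 ± 0.54 (4.23-fold, adjusted p = 0.012), a call that was lost without control replicate 1. Fitm2, an endoplasmic reticulum protein needed for droplet formation, rose by 1.24 ± 0.20 (adjusted p = 4.4e-05).

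Among genes of release, Pnpla2, the adipose triglyceride lipase itself, rose by 0.70 ± 0.20 (adjusted p = 0.031) with C22:6 replicate 3 (7.23) among the controls (7.0 to 7.56). Its call was lost in 5 of the 8 fits that left out 1 array, those without control replicates 1 and 3 and C22:6 replicates 1, 2 and 5. Mgll, the monoacylglycerol lipase, had levels of 10.08 to 10.95 in the C22:6 livers and of 9.55 to 9.75 in the control livers, a rise of 0.78 ± 0.17. Ces1d, a carboxylesterase that hydrolyses triglyceride in hepatocytes, rose by 1.15 (adjusted p = 0.038), but by 0.68 without control replicate 2 (adjusted p = 0.37), and the call was lost in 3 other such fits. Of 18 genes that assemble glycerides and phospholipids 4 rose. Gpat3, a glycerol-3-phosphate acyltransferase, rose by 0.68, Chpt1, a cholinephosphotransferase, by 0.41, and Lpin2, a phosphatidate phosphatase, by 0.88. With control replicate 2 left out, 2 of the 18 rose, and the adjusted p was 0.074 for Chpt1 and 0.21 for Lpin2. Gpat3 lost its call without control replicate 1 or 3 or C22:6 replicate 2, and Chpt1 also without control replicate 3. The fourth, the monoacylglycerol acyltransferase Mogat1, was at the floor in all 8 arrays (1.73 to 3.40), so that its call rests on signals at the level of background. Mttp, which loads lipid onto nascent very low density lipoprotein, rose by 0.61 ± 0.13 (adjusted p = 0.0014). It was the single gene called of 21 apolipoprotein and lipoprotein genes, where 3.17% of all genes rose.

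**Figure D3:**
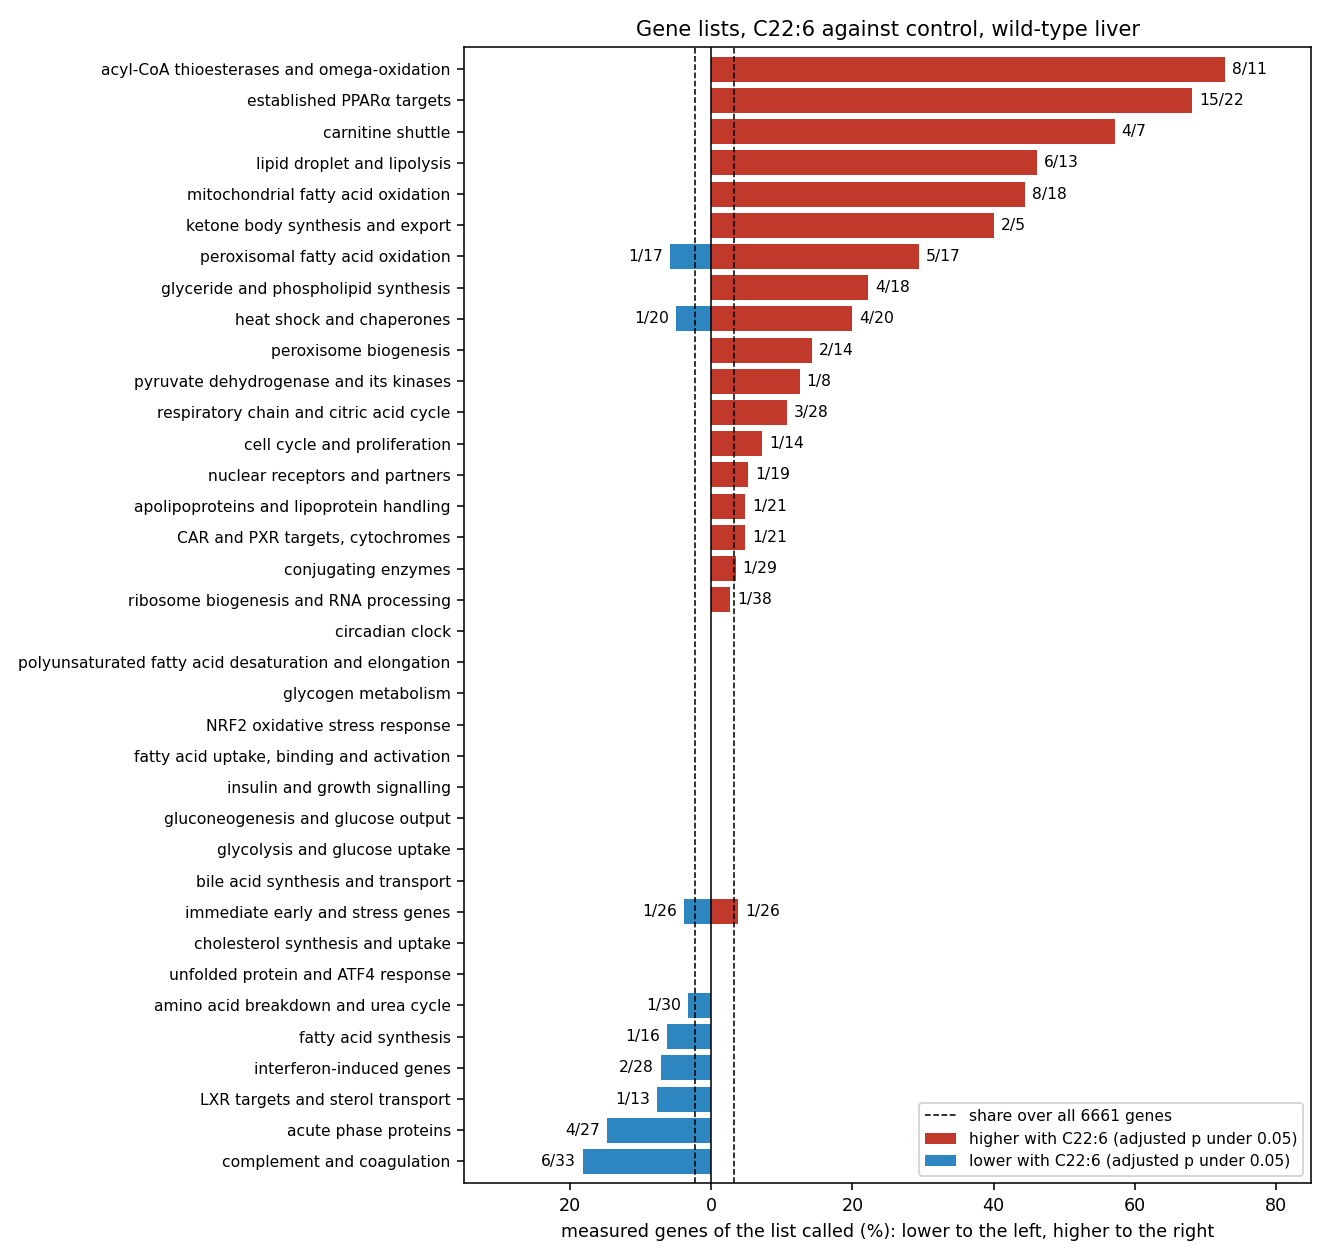
Share of the measured genes of each list that rose (bars to the right) or fell (bars to the left) with C22:6 against control, in percent, with the counts beside the bars and lists ordered by the difference between both shares. The broken lines mark the shares over all 6661 genes, 3.17% higher and 2.37% lower, and the thioesterase and ω-oxidation list has the longest bar, with 8 of 11 genes.

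Several of the largest rises lay outside these pathways. Vnn1, a pantetheinase, which recycles the pantothenate of coenzyme A, had levels of 11.25, 10.98, 9.90, 10.48 and 11.23 in the C22:6 livers and of 7.88, 7.80 and 9.63 in the control livers. Control replicate 3 approached C22:6 replicate 3, but the groups did not overlap, and the change was 2.33 ± 0.31 (5.03-fold, adjusted p = 1.1e-06). Alpl, the tissue-nonspecific alkaline phosphatase, had levels of 6.85, 6.65, 6.16, 6.22 and 7.41 in the C22:6 livers, against 5.14, 4.24 and 4.78 in the control livers, a rise of 1.94 ± 0.24 (3.83-fold, adjusted p = 2.9e-07). The lowest C22:6 liver was above the highest control by more than the range within the controls. Atp10d, a lipid-flipping ATPase, had levels of 7.41, 7.88, 6.82, 7.20 and 7.86 in the C22:6 livers and of 5.64, 5.77 and 5.49 in the control livers, a rise of 1.80 ± 0.28 (adjusted p = 3.4e-05) over controls that were nearly equal.

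Pctp, a carrier of phosphatidylcholine, rose by 1.71 ± 0.32, with levels of 9.08 to 9.99 in the C22:6 livers and of 8.47, 6.98 and 8.58 in the control livers. Its low value in control replicate 2 widened the gap, and the change was 1.20 without that array (adjusted p = 0.036). Rab30, a small GTPase of the Golgi, rose by 2.02 ± 0.48, with levels of 8.11 to 9.25 in the C22:6 livers and of 6.35 to 7.30 in the control livers. Aspa, which splits N-acetylaspartate into acetate and aspartate, rose by 1.43, and by 0.92 without control replicate 2 (adjusted p = 0.028). P2ry1, a receptor for ADP, rose by 1.59, and by 1.05 without that array (adjusted p = 0.036). With signals under the floor set to it, the change of P2ry1 with all controls was 1.28. Enc1, an actin-binding protein, rose by 1.79 ± 0.35 (adjusted p = 0.00073), with levels of 5.27 to 7.61 in the C22:6 livers and of 4.23 to 5.31 in the control livers.

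Some of the genes with large rises were at the floor in every control liver, so their change has a lower bound only. Slc16a5, a monocarboxylate transporter, had levels of 5.71, 5.73, 3.94, 5.47 and 6.66 in the C22:6 livers, a rise of at least 2.48-fold (adjusted p = 0.00072). Tmtc2, a protein of the endoplasmic reticulum, lay between 5.69 and 6.13 in all 5 C22:6 livers, a rise of at least 3.24-fold (adjusted p = 1.7e-06). Fmo2, a flavin monooxygenase, lay between 4.68 and 6.40, a rise of at least 2.63-fold (adjusted p = 0.016), and its call was lost without control replicate 2 (adjusted p = 0.091) or control replicate 3. Chrna2, a subunit of nicotinic receptors, rose at least 1.59-fold, and Gadd45b, a stress-induced regulator of growth arrest, at least 1.06-fold, with 3 of its 5 C22:6 livers at the floor and a call that was lost without C22:6 replicate 1. For Lamb3, Cbfa2t3 and Ten1, 4, 4 and 3 of the 5 C22:6 livers were at the floor too, and no fold is given.

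Genes of fatty acid synthesis were spread to both sides, with 0 of 16 raised, 1 lowered and a median change of -0.14. Over all genes 3.17% rose and 2.37% fell. The gene that fell was Srebf1, which encodes SREBP-1. Its levels were 7.27, 7.63, 9.13, 7.86 and 7.50 in the C22:6 livers, against 10.11, 8.49 and 9.36 in the control livers. C22:6 replicate 3 lay among the controls and the other 4 livers below them, and the change was -1.44 ± 0.44 (adjusted p = 0.039). The call did not hold in 6 of the 8 fits that left out 1 array, but it held without control replicate 2, where the change was -1.86 (adjusted p = 0.025). Mid1ip1, an activator of acetyl-CoA carboxylase, changed by -1.27 (adjusted p = 0.067), and Acacb, the carboxylase isoform at the mitochondrial surface, by 1.73 (adjusted p = 0.061). Both passed the threshold without control replicate 2, Mid1ip1 with a change of -1.64 (adjusted p = 0.047) and Acacb with 2.34 (adjusted p = 0.029). With signals under the floor set to it, the change of Acacb with all controls was 1.32. Of 18 genes of cholesterol synthesis and uptake 0 were called in limma and 2 had an unadjusted p under 0.05, with a median change of -0.25 and 15 of the 18 below 0. Over all genes 43.8% of the changes were above 0. Msmo1, a sterol demethylase, had a change of -1.01 (adjusted p = 0.23).

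The deepest fall was that of Ppp1r14a, an inhibitor of myosin phosphatase that is best known in smooth muscle. Its levels were 3.36, 3.61, 5.10, 3.70 and 4.09 in the C22:6 livers and 6.29, 6.93 and 7.08 in the control livers. Of the C22:6 livers 4 were at the floor and replicate 3 was not, all lay below every control, and the change was -2.80 ± 0.32 (adjusted p = 4.7e-08). It was -2.71 without control replicate 2. Cyp26a1, which breaks down retinoic acid, was at the floor in all C22:6 livers (1.76 to 2.49) and above it only in control replicate 2 (6.59, against 3.24 and 3.75 in the other controls). Its fall was at least 1.18-fold, and its call therefore rests on that array for a level above background.

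The remaining large falls divided by their dependence on control replicate 2, which was the highest of all 8 arrays in 19 of the 25 largest falls without overlap. In 15 of these 25 genes the call was lost without it. They include Dnajc12, a chaperone of amino acid hydroxylases, with levels of 5.33 to 5.96 in the C22:6 livers and of 6.34, 9.07 and 6.48 in the control livers. Its change was -1.67 (adjusted p = 0.0077), and -0.79 without control replicate 2 (adjusted p = 0.29). Gmppb, which makes GDP-mannose for glycosylation, had a change of -1.52 with that control and -0.67 without it. For Sec23b, a coat protein of vesicles that leave the endoplasmic reticulum, the values were -1.01 and -0.59, for Creb3l2, a transcription factor of secretory cells, -1.24 and -0.79, and for Gfpt1, the entry enzyme of the hexosamine pathway, -0.90 and -0.53. None of these 4 passed the threshold without that array, and Creb3l2 also lost its call without C22:6 replicate 1 or 2. The other 10 of the 15 were Cpne8, Arfgap3, Lnx1, Vasn, Avpr1a, Alg2, Lrig1, Ccdc28b, Il13ra1 and Spata13. Their adjusted p values without control replicate 2 lay between 0.066 (Lnx1) and 0.48 (Cpne8). In Cpne8, Arfgap3 and Vasn all 5 C22:6 livers were at the floor, as were control replicates 1 and 3 for Cpne8 and Arfgap3.

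The falls that held without control replicate 2 were 10 of the 25. Haus1, a subunit of the augmin complex of the spindle, had levels of 4.39, 3.49, 4.58, 4.69 and 3.60 in the C22:6 livers and of 5.72, 4.73 and 5.71 in the control livers. The change was -1.24 ± 0.27 (adjusted p = 0.0024), and -1.57 without that control. C22:6 replicates 2 and 5 were at the floor, and with signals under the floor set to it the change was -0.97 with all controls. Rab4b, a GTPase of recycling endosomes, had levels of 5.24 to 6.07 in the C22:6 livers and of 6.45, 7.44 and 6.50 in the control livers, a change of -1.20 ± 0.23 (adjusted p = 0.00059; -0.88 and 0.038 without control replicate 2). Cog3, a tethering subunit of the Golgi, changed by -0.91 ± 0.16 (adjusted p = 0.00025) and Ufl1, the ligase of the ubiquitin-like protein UFM1, by -0.89 ± 0.15 (adjusted p = 9.2e-05). Trim14, an adaptor of antiviral signalling, had levels of 6.02 to 7.02 in the C22:6 livers and of 7.29 to 7.62 in the control livers, a change of -1.07 ± 0.24 (adjusted p = 0.0034). Beside Ppp1r14a and Cyp26a1, the others of the 10 were Ier2, Psmb8 and Cirbp, with changes of -1.17, -1.0 and -1.52. All 3 calls were lost without control replicate 3, and that of Cirbp also without control replicate 1 or C22:6 replicate 5.

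Of 30 genes of amino acid breakdown and the urea cycle 1 fell and 0 rose, against 2.37% and 3.17% of all genes. The one called was Hal, the histidine ammonia-lyase. It had levels of 8.87, 8.92, 9.51, 9.23 and 9.16 in the C22:6 livers, against 10.10, 9.83 and 9.96 in the control livers. The groups did not overlap, and the change was -0.82 ± 0.20 (adjusted p = 0.0074; -0.89 and 0.022 without control replicate 2). Prodh, the proline dehydrogenase, lay below the controls in all 5 C22:6 livers as well, with a change of -0.59 that missed the threshold (adjusted p = 0.064).

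Of 27 acute phase proteins, which the liver secretes during inflammation, 4 fell and 0 rose, with a median change of -0.33 and 24 of the 27 changes below 0. Over all genes 43.8% of the changes were above 0. Orm2, an acid glycoprotein, had levels of 5.77, 6.92, 6.92, 6.04 and 5.82 in the C22:6 livers, against 6.81, 10.05 and 8.33 in the control livers, a change of -2.10 ± 0.52 (adjusted p = 0.0086). Without control replicate 2 its change was -1.28 (adjusted p = 0.21), no member was called in limma (3 had an unadjusted p under 0.05), and the median change of the list was -0.11. Serpina3n, Fgb and Hpx had changes of -0.68, -0.30 and -0.21 with all controls, and their calls were lost in 6, 4 and 5 of the 8 fits that left out 1 array. Saa2, an acute phase apolipoprotein, spanned 5.33 to 9.99 in the C22:6 livers and 7.02 to 13.32 in the control livers, and its change of -2.18 did not pass the test (adjusted p = 0.23).

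Complement and coagulation factors, which hepatocytes also secrete, showed small falls. Of 33 measured genes 6 fell and 0 rose, the median change was -0.26, and 31 of the 33 changes were below 0. Over all genes the median was -0.03 and 43.8% of the changes were above 0. C2, a protease of the classical complement pathway, had levels of 8.03, 7.75, 7.86, 7.89 and 7.87 in the C22:6 livers and of 8.46, 8.20 and 8.69 in the control livers, a change of -0.57 ± 0.17 (adjusted p = 0.030). F12, the contact factor of coagulation, changed by -0.24, F10 by -0.23, Serpinf2, the inhibitor of plasmin, by -0.42, C1ra by -0.31 and C1s1 by -0.34. Without control replicate 2, 5 genes fell, 4 of them among the 6, and the median change was -0.32. Without control replicate 3, 0 genes of the list fell in limma, and each of the 6 calls was lost in 4 or 5 of the 8 fits that left out 1 array. With C22:6 replicate 3 left out the list had 11 falls. Of 28 interferon-induced genes 2 fell and 0 rose, against 2.37% and 3.17% of all genes. Psmb8, a subunit of the immunoproteasome, had levels of 5.38 to 6.69 in the C22:6 livers and of 6.87 to 7.40 in the control livers, a change of -1.0 ± 0.22 (adjusted p = 0.0034) that was -1.08 without control replicate 2 and lost its call without control replicate 3. Ifi47, an interferon-induced GTPase, changed by -1.14 (adjusted p = 0.026), and by -0.82 without control replicate 2 (adjusted p = 0.23), and its call was lost without C22:6 replicate 2 or 4 too.

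Of 20 measured chaperones and other genes of the heat shock response 4 rose and 1 fell, the median change was 0.69, and in 14 of the 20 all C22:6 livers lay above all controls, against 5.93% of all genes. Dnaja1, a co-chaperone of Hsp70, had levels of 10.85, 10.85, 10.62, 10.97 and 11.16 in the C22:6 livers and of 10.24, 10.21 and 10.41 in the control livers, a change of 0.60 ± 0.15 (adjusted p = 0.0079). Hsp90aa1, Dnajb1 and Stip1 rose by 0.81, 1.10 and 0.77, with adjusted p values of 0.047, 0.041 and 0.029. Hspa1b, the inducible Hsp70, had levels of 10.75, 9.13, 8.85, 10.26 and 11.33 in the C22:6 livers, against 8.11, 7.76 and 8.22 in the control livers, and its change of 2.03 did not pass the test (adjusted p = 0.15). All C22:6 livers lay above the controls, but the C22:6 livers were far apart from each other, and the mean of the list was highest in C22:6 replicate 5 (9.01, against 8.11 to 8.57 in the other C22:6 livers and 7.74 to 7.91 in the control livers). The gene that fell was Cirbp, which is induced by cold, with levels of 3.82, 4.37, 4.00, 3.74 and 1.83 in the C22:6 livers and of 5.44, 4.51 and 5.27 in the control livers. Of the C22:6 livers all but replicate 2 were at the floor, and the change was -1.52 ± 0.42 (adjusted p = 0.022), a call lost in 3 of the 8 fits that left out 1 array. The 4 rises lost their calls without control replicate 2, with adjusted p values of 0.053 for Dnaja1, 0.076 for Hsp90aa1, 0.24 for Dnajb1 and 0.093 for Stip1. The calls of Hsp90aa1, Dnajb1 and Stip1 were lost in 7, 6 and 5 of the 8 fits.

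Of 26 immediate early genes, which respond within minutes to stimuli and to handling, 1 rose, Gadd45b, and 1 fell, Ier2. These counts were close to the shares over all genes, 3.17% higher and 2.37% lower. Fos had levels of 4.68, 2.94, 3.47, 7.10 and 3.09 in the C22:6 livers, against 2.29, 9.10 and 8.87 in the control livers, a change of -2.49 (adjusted p = 0.19). Ier2 had levels of 6.35, 6.63, 6.85, 7.15 and 6.88 in the C22:6 livers and of 7.61, 8.03 and 8.18 in the control livers. These groups did not overlap, and the change was -1.17 ± 0.28 (adjusted p = 0.0058), a call that was lost without control replicate 3.

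In 3 of 28 genes of the respiratory chain and the citric acid cycle a rise was found, and 0 fell. Slc25a42, which imports coenzyme A into mitochondria, had levels of 8.31, 8.53, 8.20, 8.30 and 8.60 in the C22:6 livers, against 7.76, 7.32 and 7.59 in the control livers, a change of 0.83 ± 0.16 (adjusted p = 0.00045). Cycs, cytochrome c, rose by 0.36 and Tfam, a transcription factor of mitochondrial DNA, by 0.34. The other probeset of Tfam had a change of 0.03 and was not called. The call of Tfam was lost without control replicate 2 (adjusted p = 0.096), and that of Cycs without control replicate 1 or 3 or C22:6 replicate 2. Of 18 genes of fatty acid uptake, binding and activation 0 were called in limma, and 3 had an unadjusted p under 0.05. Cd36, a fatty acid translocase, had levels of 8.00 to 8.87 in the C22:6 livers and of 7.39 to 8.17 in the control livers, a change of 0.57 (adjusted p = 0.29). Ppara itself had levels of 11.34, 11.16, 11.04, 10.99 and 10.94 in the C22:6 livers and of 10.82, 10.34 and 10.52 in the control livers. These did not overlap, but the change of 0.53 did not pass the test (adjusted p = 0.096). Of 19 nuclear receptors and partners 1 rose, against 3.17% of all genes. It was Nr1i2, the pregnane X receptor, with a rise of 0.89 (adjusted p = 0.045), and of 0.62 without control replicate 2 (adjusted p = 0.30). That call was lost in 6 of the 8 fits that left out 1 array.

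Across all 36 pathway lists, 53 of 631 measured genes rose and 17 fell, against 3.17% and 2.37% of all genes. The share that fell was thus close to that over all genes. Of the 22 established PPARα targets 15 rose and 0 fell. All 22 changes were above 0, and their median was 0.99, against 43.8% above 0 and a median of -0.03 over all genes. Without control replicate 2, 13 of the 22 rose. These lists were written with earlier results of these data known, so their counts describe the livers and are no independent evidence.

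To see whether the response needed PPARα, the change in WT mice was set against the change in PPARα -/- mice. Of 3 probesets of Ppara, that with the lowest signal had levels of 8.84 to 9.19 in the WT C22:6 livers and of 8.10 to 8.89 in the WT control livers, against means of 6.58 in PPARα -/- livers with C22:6 and 6.79 with the vehicle. The other probesets were lower in PPARα -/- livers too, with means of 9.85 and 8.46 after C22:6, against 11.1 and 10.3 in WT mice. Whether the probesets lie in the deleted part of the gene was not tested. The WT change minus the PPARα -/- change differed from 0 in 218 genes (3.27%), in 145 (2.18%) with the higher and in 73 (1.1%) with the lower change in WT. Of the 211 genes that rose in WT 81 were among them (38.4%), and of the 158 that fell 30 (19.0%). Over the 211 genes the median change was 0.74 in WT mice and 0.07 in PPARα -/- mice, and over the 158 genes it was -0.64 in WT mice and -0.13 in PPARα -/- mice. The WT medians are those of genes chosen for their WT change. Since the genotype contrast uses the same WT arrays, the counts over these genes are a description only. For the 22 established PPARα targets the median change was 0.99 in WT mice and 0.44 in PPARα -/- mice. Of the 15 targets that rose in WT mice, 8 differed between the genotypes, a count that is again a description only. In PPARα -/- mice themselves, 29 of the 211 rose and 10 fell, and 24 of the 158 fell and 1 rose, against 5.93% of all genes that rose and 9.19% that fell in this genotype. Without WT control replicate 2 the genotypes differed in 45 genes, 42 with the higher and 3 with the lower change in WT, of which 41 and 3 were among those counted with it.

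**Figure D4:**
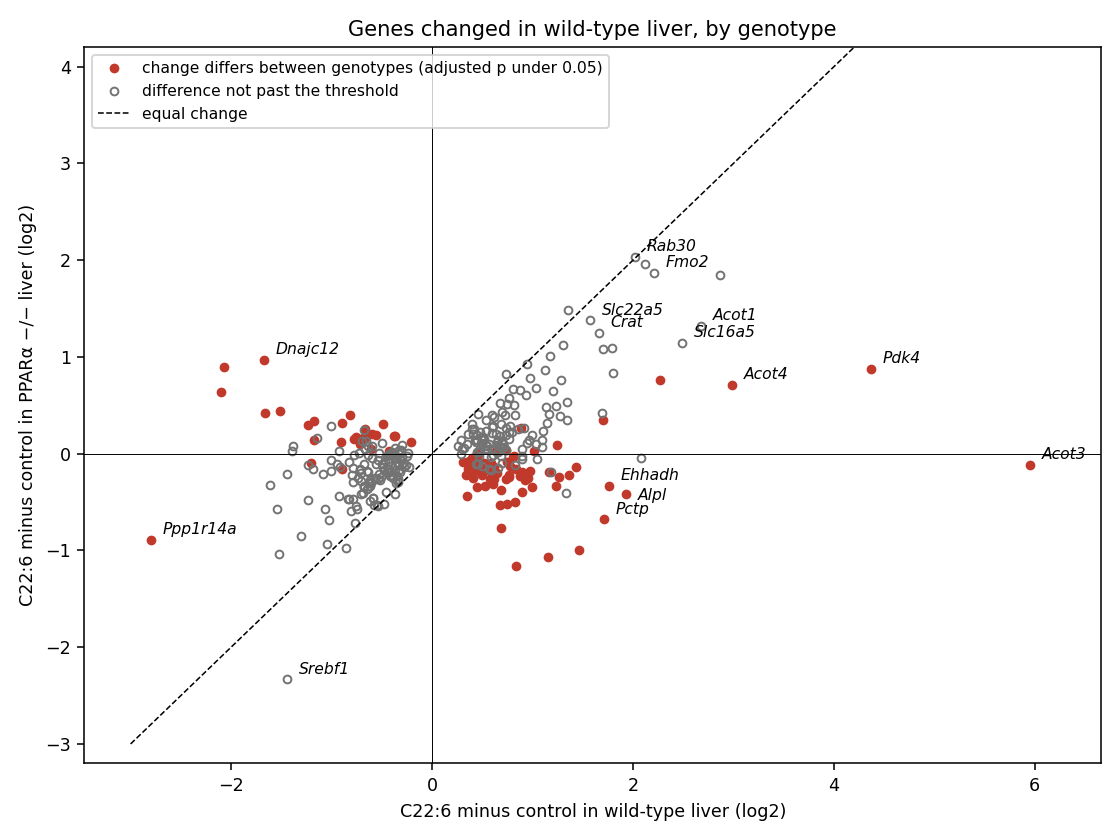
Log2 change with C22:6 in WT livers (horizontal axis) and in PPARα -/- livers (vertical axis), 1 point for each of 353 genes that changed in WT and were above the floor in at least 1 PPARα -/- array; filled points mark the 99 genes whose changes differ between the genotypes. Acot3 lies at 5.95 in WT and -0.12 in PPARα -/- livers, Crat at 1.66 and 1.25.

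Of the 25 largest rises without overlap, 16 differed between the genotypes, and in 8 of the 25 all 10 PPARα -/- arrays were at the floor, so that no fold can be given there. These 8 are Cyp4a14, Vnn1, Tmtc2, Chrna2, P2ry1, Ten1, Lamb3 and Cbfa2t3. Among genes that PPARα -/- livers express, Ehhadh changed by 1.76 in WT mice and by -0.33 in PPARα -/- mice, where its levels were 9.62, 9.01, 9.64, 9.66 and 9.46 with C22:6 and 9.68, 10.10, 9.54, 10.04 and 9.69 with the vehicle. The difference between the genotypes was 2.09 (adjusted p = 1.3e-05), and the PPARα -/- groups overlapped. Acot4 changed by 2.99 in WT mice and by 0.72 in PPARα -/- mice (difference adjusted p = 0.00036), Alpl by 1.94 and -0.41 (adjusted p = 1.3e-05), and Pctp by 1.71 and -0.68 (adjusted p = 0.00037). Abcd3 and Slc25a42 moved in opposite directions: Abcd3 rose by 0.58 in WT mice and fell by 0.26 in PPARα -/- mice (adjusted p = 0.025), and Slc25a42 rose by 0.83 in WT mice and fell by 0.50 in PPARα -/- mice (adjusted p = 0.012). Their genotype differences had adjusted p values of 2.7e-05 and 7.0e-05.

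Other genes rose in both genotypes. Crat had levels of 6.25, 7.73, 6.88, 6.14 and 6.59 in PPARα -/- livers with C22:6, against 5.38, 5.94, 5.02, 5.82 and 5.19 with the vehicle. All C22:6 livers lay above the vehicle livers in this genotype too, on a lower base than in WT mice, and the change was 1.25 (adjusted p = 0.00072). The genotype difference was 0.41 (adjusted p = 0.58). In PPARα -/- mice Slc22a5 rose by 1.38, Slc25a20 by 0.82 and Acot1 by 1.32, with genotype differences of 0.19, -0.09 and 1.36 (adjusted p = 0.85, 0.86 and 0.10), which did not pass the test and do not show equal changes. Rab30 was at the floor in all 5 PPARα -/- vehicle livers and lay between 2.96 and 6.50 with C22:6. Atp10d rose by 0.84 in PPARα -/- mice (adjusted p = 0.019; genotype difference 0.96, adjusted p = 0.15). Srebf1 fell in PPARα -/- mice as well, to levels of 6.36, 5.13, 6.27, 6.22 and 4.63 with C22:6, against 8.18, 8.42, 7.16, 8.15 and 8.37 with the vehicle. These groups did not overlap, and the change of -2.33 (adjusted p = 0.00029) did not differ detectably from that in WT mice (difference 0.89, adjusted p = 0.43).

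Markers of macrophages differed with C22:6 in PPARα -/- livers. All 16 measured Kupffer cell and macrophage markers were higher with C22:6 in PPARα -/- livers, 9 of them past the threshold, where 46.1% of all genes were higher and 5.93% past the threshold. Their mean level was 7.44 to 8.41 with C22:6 and 5.29 to 7.84 with the vehicle. In WT livers 3 of the 16 were higher, against 43.8% of all genes, and 0 were called in limma (1 at an unadjusted p under 0.05). Their mean level there was 6.19 to 6.48 with C22:6 and 6.27 to 6.93 with the vehicle. The defining markers Cd68, Timd4 and Marco were at the floor in all 8 WT arrays. All 27 acute phase genes were higher with C22:6 in PPARα -/- livers, 3 past the threshold, against 3 of 27 higher in WT livers. Of the 26 immediate early genes 22 were higher in PPARα -/- livers, 8 past the threshold. By the limma test of the genotype difference, 0 of the 16 macrophage markers passed an adjusted p under 0.05. It was passed by 3 of the 27 acute phase and 5 of the 26 immediate early genes, against 3.27% of all genes. What part such markers have in the genotype differences of other genes was not tested.

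To compare C22:6 with other triglycerides, C22:6 livers were set directly against livers of WT mice given the same volume of triolein (C18:1) or trieicosapentaenoin (C20:5). Oleic acid has a single double bond and DHA has several in a longer chain, and EPA is a shorter omega-3 fatty acid. The changes of C22:6, C20:5, C18:1 and WY14643 against control share the same 3 control livers, whereas the direct contrasts do not use them. These are 2 pairs of triglycerides, and p values were adjusted over all probesets within each.

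C22:6 and C18:1 livers differed in 275 genes (4.13%), with 195 higher (2.93%) and 80 lower (1.2%) with C22:6. Of the 211 genes that rose against control 120 (56.9%) were higher than with C18:1, and of the 158 that fell 31 (19.6%) were lower. Of the 25 largest rises 22 were higher than with C18:1, the exceptions being Fmo2, G0s2 and Ten1. For Lamb3, Cbfa2t3 and Gadd45b the mean C22:6 level was only 0.78, 0.91 and 1.03 times the floor of the C18:1 livers. Their differences from C18:1 thus rest on signals near background. All the genes counted were chosen for high or low values in the same 5 C22:6 arrays. This favours a difference in that direction here, so these counts are a description only. Ehhadh had levels of 12.45, 12.41, 11.27, 12.07 and 12.87 in C22:6 livers and of 10.85, 10.38, 10.19, 10.37 and 11.30 in C18:1 livers, a difference of 1.60 (adjusted p = 7.1e-08). The groups overlapped only between C22:6 replicate 3 and the highest C18:1 liver. Crat lay between 8.37 and 9.86 in C22:6 livers and between 7.67 and 8.00 in C18:1 livers, a difference of 1.54 (adjusted p = 1.3e-05). Cidec was at the floor in all 5 C18:1 livers and at least 4.40-fold higher in C22:6 livers (adjusted p = 4.8e-05). Acot2 differed by 2.00, Enc1 by 2.09 and Pdk4 by 2.94 (adjusted p = 0.00042), the last 2 with 2 of the 5 C18:1 livers at the floor. Cdkn1a, a brake on the cell cycle, was also higher than with C18:1, by 2.59 (adjusted p = 0.021), with 2 of the 5 C18:1 livers at the floor, whereas its change against control, 1.64, did not pass the test (adjusted p = 0.26). The call against C18:1 was lost in 4 of the 10 fits that left out 1 array. On the lower side Ppp1r14a differed from C18:1 by -1.47, Avpr1a, the vasopressin receptor of hepatocytes, by -1.38 and Fmn2, an actin nucleator, by -1.49. Spry4, an inhibitor of growth factor signalling, differed from C18:1 by -1.53, whereas its change against control, -0.38, was not called. Of the C22:6 livers, 4 were at the floor for Ppp1r14a and 3 for Fmn2, whose call was lost without C22:6 replicate 5.

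C22:6 and C20:5 livers differed in 2 of 6661 genes (0.03%) at an adjusted p under 0.05 in limma, and in 131 genes (1.97%) at an unadjusted p under 0.01. The count of 2 was 24 without C22:6 replicate 3, 1 without C22:6 replicate 5 and 94 with array weights. Alpl was higher with C22:6 than with C20:5, whose livers had levels of 5.51, 5.66, 5.11, 5.73 and 5.38, below every C22:6 liver. The difference was 1.17, with a 95% interval of 0.75 to 1.60 (adjusted p = 0.0038), and the call was lost without C22:6 replicate 5. Ppp1r14a was lower with C22:6 than with C20:5, whose livers had levels of 5.53, 5.24, 5.95, 6.04 and 5.39, all above every C22:6 liver. The difference was -1.66, with an interval of -2.21 to -1.10 (adjusted p = 0.0016). For other genes the intervals allow sizeable differences. They ran from 0.48 to 2.67 for Pdk4, from 0.39 to 1.14 for Ehhadh, from 0.17 to 1.09 for Crat, from 0.32 to 1.37 for Acot4, and from -0.32 to 2.30 for Acot3, none with an adjusted p under 0.05. The interval for Vnn1 lay around 0, from -0.41 to 0.67.

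Against the shared controls, the 211 genes that rose with C22:6 had median changes of 0.74 with C22:6, 0.46 with C20:5, 0.20 with C18:1 and 1.30 with WY14643, where the first value is that of the genes' own choice. WY14643 was given as a suspension in the vehicle and the triglycerides as fat. The paper states that the unlike doses complicate a direct comparison, so the values are no ranking of potency. For single genes the values stood side by side as follows. Pdk4 had mean levels of 7.97 with C22:6, 6.40 with C20:5, 5.03 with C18:1 and 12.0 with WY14643, against 3.60 in the controls, where 2 of 5 C18:1 and 2 of 3 control livers were at the floor. Ehhadh changed by 1.76 with C22:6, 0.99 with C20:5, 0.16 with C18:1 and 2.67 with WY14643.

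**Figure D5:**
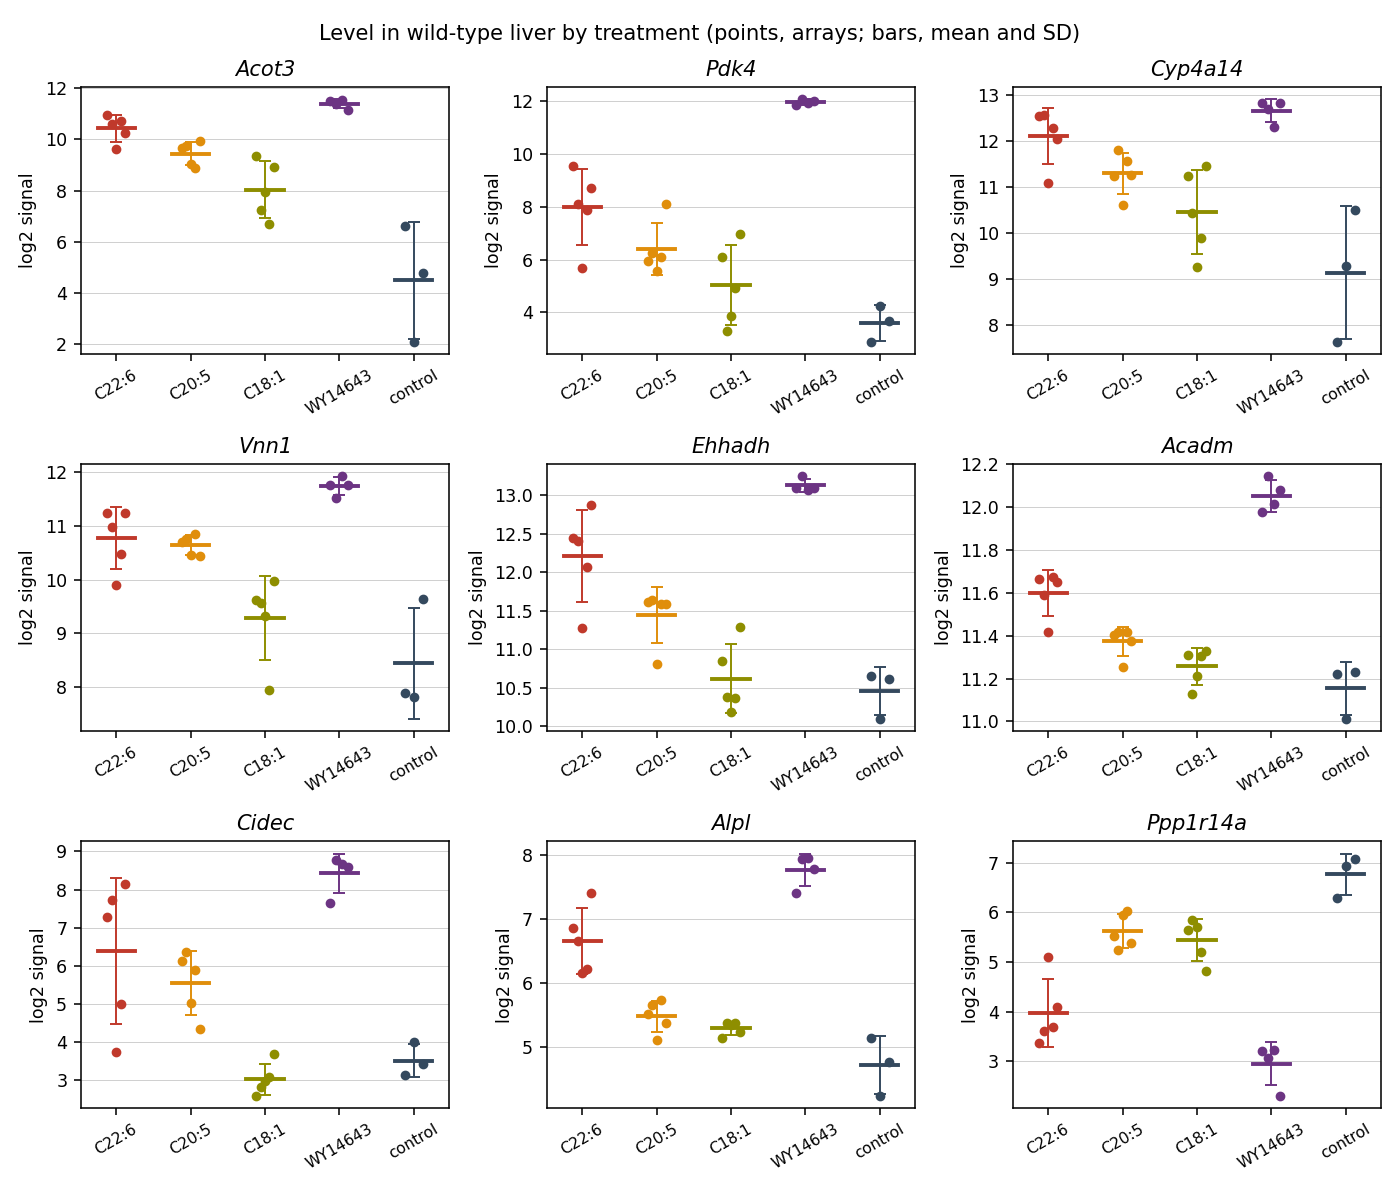
Log2 signal (vertical axis) of 9 genes in WT livers by treatment, with 1 point per array and bars for the mean and SD, for C22:6, C20:5, C18:1, WY14643 and control. Alpl is higher and Ppp1r14a lower in every C22:6 liver than in every C20:5 liver.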

How the data were processed

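Liver RNA of single mice was hybridized by the authors to Affymetrix Mouse Genome arrays. The deposited values are linear signal intensities that the authors background-corrected with GC-RMA (GCRMA 2.20, empirical Bayes), normalized and filtered to 11463 probesets with enough variation over the arrays, so genes that vary little are not represented. This correction pushes dim probesets far down, which widens log2 differences near the floor. Here log2 was taken, 51 control probesets were left out, and probesets were named where the platform annotation gave 1 symbol (10279), not several (406) or none (727). One mean per group was fitted to the 56 arrays of the first run, whose 12 groups share 1 estimate of the spread, with limma 3.58.1 in R 4.3.3, and p values were adjusted by the Benjamini-Hochberg method over 11412 probesets. Errors are SE of this fit, and intervals are 95% intervals. No 2 arrays held identical values, and the number of arrays limits the precision. The fit was tested on simulated data with known changes.

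Genes named in the text were taken from the 25 largest rises and falls without overlap of the groups, called members and up to 4 members of each of 46 gene lists (36 pathways, 10 cell types), genes the study names for C22:6, and the 8 largest differences each way in the other contrasts. Efl1, Itgb1bp1 and the macrophage markers were added after their values were seen. The members and lists were chosen with earlier results of these data known. A gene whose control (or C18:1) arrays were all at the floor was given a bound, the mean of the C22:6 arrays over the mean of those floors. Fold sizes with signals set to the floor were added after the values were seen. Alternatives covered the arrays in the fit, filters, the variance prior, array weights, normalization, a replicate block and leaving out each array. Arrays of other treatments and of the later run entered only as stated, and plasma, protein and PCR measurements were not analysed here.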

Additional observations from a re-analysis of the deposited data

Results flagged for a closer look

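In 11 of the 120 genes of the text that were examined, 1 C22:6 liver lay far from the other 4, by a gap between it and its neighbour of more than 0.71 of the group's whole range. For independent values of a normal distribution, chance alone gives this in about 1 gene in 20. The genes here share the same C22:6 livers and were mostly chosen for their changes in them, so the 11 cannot be held against that share. C22:6 replicate 3 was the outlying array, and the lowest, for Acot1 (0.814 of the range), Acad11 (0.794), Crat (0.750), Pctp (0.744) and Acot4 (0.723), and it was the highest for Pdhb (0.781). C22:6 replicate 1 was the highest for Hacl1 (0.763) and Nr1i2 (0.741), and C22:6 replicate 5 was the highest for Mogat1 (0.760) and the lowest for Cirbp (0.751). C22:6 replicate 4 was the lowest for Spata13 (0.715).

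The change with C22:6 differed between WT and PPARα -/- mice, by the test of the difference in the fit, in 37 of the genes of the text that were above the floor in at least 1 PPARα -/- array. In 25 of them the WT change minus the PPARα -/- change was positive. On the log2 scale it was 6.07 for Acot3, 3.49 for Pdk4, 2.39 for Pctp, 2.35 for Alpl, 2.27 for Acot4, 2.22 for Ces1d, 2.09 for Ehhadh, 1.56 for Aspa, 1.51 for Acot2, 1.36 for Pex11a, 1.33 for Slc25a42 and 1.15 for Fitm2. It was below 1 for Acot8 (0.99), Mttp (0.88), Abcd3 (0.83), Chpt1 (0.66), Eci1 (0.61), Tfam (0.56), Acadm (0.55), Acat1 (0.52), Hsd17b4 (0.52), Acad11 (0.46), Pex13 (0.46), Hadha (0.44) and Decr1 (0.40). It was negative in 12 genes, with -2.74 for Orm2, -2.64 for Dnajc12, -2.09 for Arfgap3 (at the floor in all 5 WT C22:6 livers), -1.96 for Gmppb, -1.91 for Ppp1r14a, -1.54 for Creb3l2, -1.31 for Ier2, -1.22 for Gfpt1, -1.11 for Rab4b, -1.03 for Cog3, -0.74 for Ufl1 and -0.33 for Hpx. With WT control replicate 2 left out, 11 of the 12 negative differences no longer passed the threshold (adjusted p = 0.057 to 0.34) and that of Ppp1r14a did. Of the 25 positive differences 11 were lost (adjusted p = 0.065 to 0.32) and 14 passed.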

How the results depend on the processing

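Of 110 named genes called for C22:6 against control, 0 turned their direction under the alternatives run. When the spread was taken from the compared groups alone, 14 genes were higher and 2 lower with C22:6, 358 had an unadjusted p under 0.01, 6 differed between the genotypes, 115 from C18:1 and 1 from C20:5, and 10 of the 110 named genes kept their call. Array weights gave 339 genes lower with C22:6, 135 that differed between the genotypes, 703 from C18:1 and 94 from C20:5. A fold of at least 1.5 left 91 genes lower, and an unadjusted p under 0.01 gave 42 genes of the pathway lists that were lower, against 17 at the adjusted threshold. The replicate numbers name separate mice and were not taken as pairs (correlations of the deviations of same-numbered mice were 0.126, 0.330 and 0.070), and the replicate block gave 328 genes that differed between the genotypes, against 218 without it, and changed no other count by over 1.5 times. The other settings, all 93 arrays, an intensity trend, a robust prior, quantile normalization, median centring and both filters, kept 98 to 110 of the named calls, where the filters left 98 and 106 of the 110 to be tested.

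Leaving out 1 array at a time gave 125 to 252 genes higher and 83 to 236 lower with C22:6 against control, 506 to 715 at an unadjusted p under 0.01, 45 to 429 that differed between the genotypes, 150 to 369 from C18:1 and 1 to 24 from C20:5, and on the pathway lists 35 to 60 higher and 5 to 32 lower. The genes higher fell to 125 without control replicate 2. The genes lower numbered 88 without control replicate 2, 88 without control replicate 3, 95 without C22:6 replicate 1 and 83 without C22:6 replicate 2. The genotype count was 45 without WT control replicate 2, 129 without WT C22:6 replicate 1 and 115 without PPARα -/- C22:6 replicate 2, and it was 429 without WT control replicate 1, 357 without PPARα -/- C22:6 replicate 1 and 366 without PPARα -/- C22:6 replicate 4. The C18:1 count was 182 and 180 without C18:1 replicates 2 and 4 and 150 without C22:6 replicate 5. The C20:5 count was 24 without C22:6 replicate 3 and 1 without C22:6 replicate 5. List genes higher numbered 35 without control replicate 2, and list genes lower 5 without control replicate 3, 8 without C22:6 replicate 2, 10 without C22:6 replicate 5 and 32 without C22:6 replicate 3. The causes were not tested. Differences near the floor have the least signal behind them.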
